A study of Mus musculus with 12 samples.

Results

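The genes described here are 32 genes of sterol and fatty acid synthesis controlled by the SREBP transcription factors, out of 23337 gene symbols in the raw count table of a study of the cohesin gene Stag2 in mouse urothelial cells. The members were listed by name: 5 regulators, 17 enzymes of the mevalonate and sterol pathway, 1 sterol transport protein and 9 enzymes of fatty acid synthesis and desaturation. The list was chosen by the measured level of Srebf2, low in quiescent cells with Stag2 knocked down, with the question whether its targets were low as well. The comparison of knockdown with control in quiescent cells thus chose the genes, and its values are given below as a description, with no test of them: calls from the fit over all genes are printed there only beside their background, and nothing is read from them. All 32 were in the table, and all 32 were among the 12406 genes left by the filter on low counts.

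The 12 libraries came from NU1, 1 line of normal mouse urothelial cells (the lining of the bladder) that became immortal during passaging. Polyadenylated RNA was sequenced from 4 groups of 3 libraries. Proliferating control cells carried the hairpin shNT and are labelled wild type. Proliferating knockdown cells carried sh4, the hairpin against Stag2. Quiescent control and quiescent knockdown cells carried the same hairpins and are labelled as day 7 of differentiation. These had been grown to confluence and then given 1 uM rosiglitazone, an activator of PPAR gamma, and 0.5 uM erlotinib, an inhibitor of the EGF receptor kinase. All 4 groups grew in medium with serum, EGF, insulin, thyroid hormone and hydrocortisone. The design text speaks of several hairpins against Stag2, but the libraries hold only 1, sh4. Confluence, the added compounds, time in culture and quiescence cannot be told apart. Each group has 1 library from each of experiments 5, 7 and 9, and each experiment has its own batch number in the labels.

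Stag2, the knocked-down gene, stood at 113 to 146 CPM (counts relative to the library total, scaled between libraries by TMM) in proliferating control cells and at 24.6 to 33.3 CPM with sh4. In quiescent cells it stood at 108 to 128 CPM in control and at 9.43 to 15.3 CPM with sh4. The libraries held 14524429 to 21987539 counts, and the 32 genes took 0.250 to 0.478% of them. Of 17 urothelial markers, 13 averaged over 1 CPM. Krt8, a keratin of simple and urothelial epithelium, stood at 3493 to 9042 CPM, while Trp63 of basal cells was at 0 in all 12 libraries and Upk3a, a uroplakin, was at 0 in all but 1. Marker lists of fibroblasts, endothelium, adipocytes and hepatocytes summed to at most 2.22 CPM in any library. The leukocyte list summed to 15.5 to 33.2 CPM in proliferating control and 110 to 169 CPM in quiescent knockdown cells. That sum was carried by Csf1r, with means of 20.8, 35.8, 42.0 and 125 CPM in proliferating control, proliferating knockdown, quiescent control and quiescent knockdown cells, while Ptprc, the pan-leukocyte CD45, never exceeded 0.408 CPM.

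SREBP proteins are made as precursors in the membrane of the endoplasmic reticulum, where Scap senses sterols and carries them to the Golgi for cleavage. The released part enters the nucleus and switches on genes of lipid synthesis, and Insig1 and Insig2 hold Scap back when sterols are plentiful. SREBP2, the product of Srebf2, mainly drives sterol synthesis, and SREBP1, the product of Srebf1, mainly drives fatty acid synthesis. Insig1 and Srebf2 are themselves targets, which makes a feedback loop. Urothelium is known for an apical membrane rich in cholesterol and uroplakins.

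The promoters of 3 members that differ in how they changed below are shown. They carry, or lack, the core TCACNCCA of the sterol regulatory element, a sequence that SREBPs are known to bind. Each is the stretch from 200 to 1 bases before the annotated start in RefSeq on GRCm38.p6, on the plus strand, at chr15:82147069-82147268 for Srebf2, chr13:119690151-119690350 for Hmgcs1 and chr13:8885406-8885605 for Idi1. Capitals mark the sterol regulatory element core TCACNCCA and the CCAAT box, which reads ATTGG on the opposite strand, and no printed match overlaps another.
Srebf2: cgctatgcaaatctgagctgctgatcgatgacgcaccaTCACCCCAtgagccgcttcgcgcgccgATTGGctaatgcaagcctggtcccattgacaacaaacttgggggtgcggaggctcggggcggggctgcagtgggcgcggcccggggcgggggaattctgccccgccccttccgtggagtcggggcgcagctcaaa
Hmgcs1: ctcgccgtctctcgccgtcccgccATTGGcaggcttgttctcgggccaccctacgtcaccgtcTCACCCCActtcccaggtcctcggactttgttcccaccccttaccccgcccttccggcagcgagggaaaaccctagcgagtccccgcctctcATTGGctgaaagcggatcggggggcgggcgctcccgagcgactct
Idi1: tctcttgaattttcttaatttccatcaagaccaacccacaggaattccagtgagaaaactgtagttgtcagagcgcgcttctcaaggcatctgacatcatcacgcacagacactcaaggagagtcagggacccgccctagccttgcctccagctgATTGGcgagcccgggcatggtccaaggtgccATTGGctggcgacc

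Promoter windows from 250 bases before to 50 bases after the start were at hand for 25 of the 32 genes. The core TCACNCCA, searched on both strands, was in 2 of the 25, Srebf2 (at -162) and Hmgcs1 (at -137), which is 8% against 4.97% of the 27025 genes with a window. The longer form TCACNCCAC, which contains the core, was in Hmgcs1 alone, 4% against 1.44% of genes. The CCAAT box, bound by NF-Y, a partner of SREBPs, was in 20 of the 25, or 80%, against 41.1% of genes. Base composition was not matched in these shares. Idi1 has a pair of CCAAT boxes and no core in its window. Other forms of the element were not searched, so a window without the core may still hold a sequence that SREBPs bind.

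Among the regulators, Srebf2 was the most abundant per length in proliferating control cells and no longer so in quiescent knockdown cells. On the scale of CPM per kilobase of exon, Srebf2 averaged 78.8 ± 5.14 (SD, n = 3) and Srebf1 36.4 ± 0.876 in proliferating control cells. In quiescent knockdown cells Srebf2 averaged 31.5 ± 1.99, Srebf1 34.6 ± 8.34 and Scap 33.0 ± 3.11 CPM per kilobase, so these 3 lay within their spread of each other. Insig1 and Insig2 were the lowest regulators, at 15.9 ± 2.20 and 9.65 ± 1.30 CPM per kilobase in proliferating control cells. Among the enzymes, Scd2, a stearoyl-CoA desaturase, had the highest level, 232 ± 40.3 CPM per kilobase. Acly, which makes cytosolic acetyl-CoA from citrate, followed at 94.1 ± 13.3 and Fdps, which makes farnesyl pyrophosphate, at 92.2 ± 20.5, and the 2 did not differ beyond their spread. Acss2, which makes acetyl-CoA from acetate, was the lowest at 0.566 ± 0.0780.

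**Figure D1:**
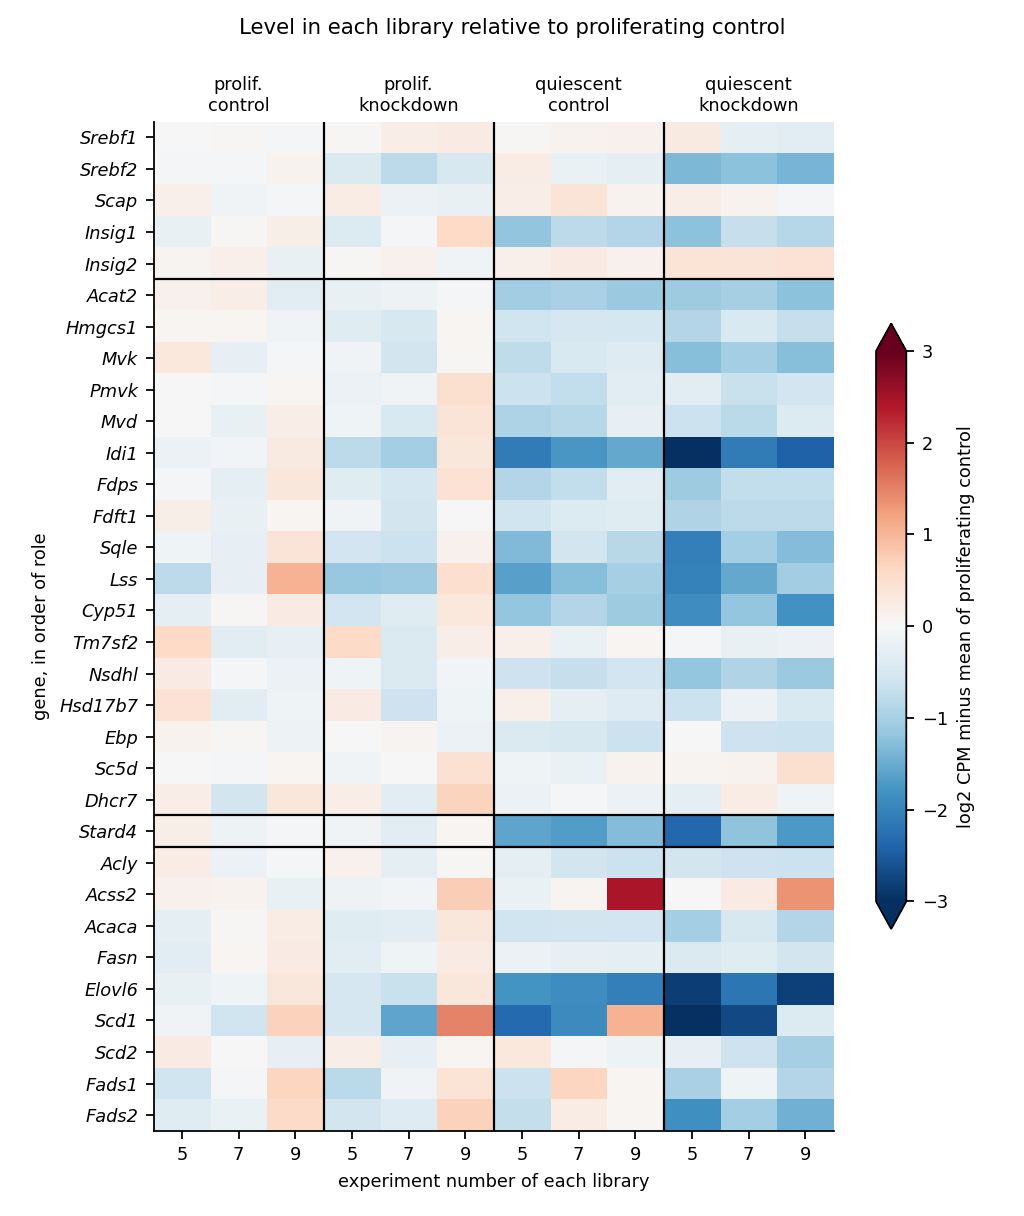
Level of each of the 32 genes (rows, in order of role) in each of the 12 libraries (columns, by group and experiment number), as the log2 CPM minus the mean of the 3 proliferating control libraries. Blue is below that mean and red above it, with a colour scale from -3 to 3. Idi1, Stard4 and Elovl6 are blue in all 6 quiescent libraries, and Srebf2 is darkest in the 3 quiescent knockdown libraries.

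In control cells entry into quiescence came with lower messages of Insig1, Stard4, Elovl6 and several sterol enzymes. That of Srebf1 showed no change past the test, and that of Srebf2 is described below without a test. By edgeR's quasi-likelihood test, 9 of the 32 genes fell and 0 rose at an adjusted p under 0.05, where 20.0% of all tested genes were called, 11.7% lower and 8.33% higher. In bulk libraries fewer cells with a message and less of it per cell cannot be told apart. The median log2 fold change of the 32 genes was -0.51, against 0.005 over all tested genes. With experiment as a replicate block 17 fell and 0 rose, where the block called 35.3% of all genes, 16.8% higher and 18.5% lower. For 18 of the 32 genes all 3 quiescent libraries lay below all 3 proliferating ones, which was so for 18.5% of all genes, and for 0 genes they lay above, against 17.1% of all genes.

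Of the 5 regulators only Insig1, the sterol-dependent anchor of Scap, fell. It stood at 36.7, 43.7 and 48.5 CPM in proliferating control cells of experiments 5, 7 and 9, and at 18.8, 24.6 and 23.1 CPM in the quiescent ones. The groups did not overlap, and the log2 fold change was -0.95 (SE 0.24, adjusted p 0.0183 by edgeR). Srebf2 stood at 386, 384 and 430 CPM before and at 465, 346 and 325 CPM after, a log2 fold change of -0.08 (SE 0.15). Its quiescent libraries lay on both sides of the proliferating ones. The quiescent control libraries belong to the comparison that chose the genes, so Srebf2 is described here and not tested. Srebf1 went from 155, 161 and 154 CPM to 161, 167 and 170 CPM, a log2 fold change of 0.08 (SE 0.15). Scap (0.23, SE 0.14) and Insig2 (0.16, SE 0.12) did not pass the test either.

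The 17 sterol enzymes all had a negative log2 fold change, from -1.79 to -0.05 with a median of -0.56. The test was passed by 5 of them, and by 12 with the block. The largest fall was that of Idi1, which interconverts the isoprenoid building blocks: 89.4, 94.9 and 120 CPM in proliferating control cells became 23.3, 29.7 and 34.9 CPM. The groups lay far apart, at 3.46-fold (log2 fold change -1.79, SE 0.37, adjusted p 0.00689 by edgeR).

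Acat2, the thiolase that condenses acetyl-CoA at the head of the pathway, went from 17.6, 18.6 and 12.7 CPM to 7.73, 8.08 and 7.34 CPM (log2 fold change -1.08, SE 0.18, adjusted p 0.00188 by edgeR). Cyp51, the demethylase of lanosterol, went from 120, 148 and 171 CPM to 65.1, 78.7 and 68.6 CPM (-1.05, SE 0.25, adjusted p 0.0144 by edgeR). Neither gene's groups overlapped. Nsdhl, which removes the next carbon of the sterol ring (-0.64, SE 0.14, adjusted p 0.0102 by edgeR), and Hmgcs1, which makes HMG-CoA (-0.54, SE 0.15, adjusted p 0.0291 by edgeR), also fell.

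Lss, the enzyme that closes the sterol ring, varied too much between experiments to pass: 50.5, 73.8 and 180 CPM in proliferating cells and 28.0, 36.2 and 43.9 CPM in quiescent ones, a log2 fold change of -1.49 with an SE of 0.53 (adjusted p 0.0683 by edgeR and 0.00234 with the block). Sqle, squalene epoxidase, went from 92.5, 85.2 and 133 CPM to 40.3, 69.8 and 57.2 CPM (-0.89, SE 0.30, adjusted p 0.0593 by edgeR and 0.0109 with the block). Fdps went from 128, 108 and 166 CPM to 72.1, 78.4 and 104 CPM (-0.66, SE 0.25, adjusted p 0.0899 by edgeR and 0.00832 with the block). In all 3 genes the groups did not overlap. Mvd, Pmvk, Ebp and Fdft1 also passed only with the block, with log2 fold changes from -0.66 to -0.46, and Mvk (-0.56) passed neither test. The late enzymes Hsd17b7, Dhcr7, Sc5d and Tm7sf2 lay between -0.19 and -0.05, with overlapping groups.

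Stard4, a carrier of cholesterol between membranes, fell 2.89-fold, from 31.2, 24.6 and 26.9 CPM to 9.11, 8.44 and 11.1 CPM (log2 fold change -1.53, SE 0.26, adjusted p 0.00216 by edgeR), with no overlap.

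Among the 9 fatty acid enzymes the change was uneven. Elovl6, the elongase of palmitate, fell 3.82-fold, from 34.7, 37.3 and 51.4 CPM to 11.6, 11.1 and 9.66 CPM (log2 fold change -1.93, SE 0.29, adjusted p 0.00106 by edgeR). Acly fell from 502, 384 and 416 CPM to 351, 292 and 274 CPM (-0.50, SE 0.15, adjusted p 0.0342 by edgeR). Neither gene's groups overlapped. Acaca, the acetyl-CoA carboxylase that commits carbon to fatty acids, passed only with the block: 98.2, 121 and 137 CPM became 77.5, 80.8 and 78.5 CPM (-0.59, SE 0.21, adjusted p 0.0667 by edgeR and 0.0257 with the block).

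The desaturases Scd2, Fads1 and Fads2 lay near 0. Scd2 had a log2 fold change of 0.04 (SE 0.22), Fads1 0.03 (SE 0.41) and Fads2 -0.16 (SE 0.38), and Fasn, the fatty acid synthase, -0.25 (SE 0.17). None of these 4 passed the test, with or without the block. Acss2 gave 2.36, 2.31 and 1.82 CPM in proliferating cells and 1.86, 2.26 and 12.2 CPM in quiescent ones. Its log2 fold change of 1.33 (SE 0.66, adjusted p 0.179 by edgeR) came from the quiescent control library of experiment 9 and was -0.07 without that library. Scd1, the other stearoyl-CoA desaturase, stood at 11.2, 7.97 and 19.5 CPM in proliferating cells and at 2.28, 3.12 and 24.8 CPM in quiescent ones (-0.35, SE 1.02). It was highest in experiment 9 in both states, and in knockdown cells too, at 33.7 CPM while proliferating and 8.96 CPM while quiescent.

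The count of 9 depended on single libraries and experiments. It was 14 without the proliferating knockdown library of experiment 9, 5 without experiment 9 and 2 without experiment 7. Calls over all genes in the same fits are not given here, so these shifts are not read as particular to the members. Of 15 fits that each left out 1 library or 1 experiment, Elovl6 and Stard4 passed in all 15, Acat2 and Idi1 in 14 (lost without experiment 7, at log2 fold changes no weaker than -0.97 and -1.64), Nsdhl in 12, Cyp51 in 11, Insig1 in 10, and Hmgcs1 and Acly in 7.

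**Figure D2:**
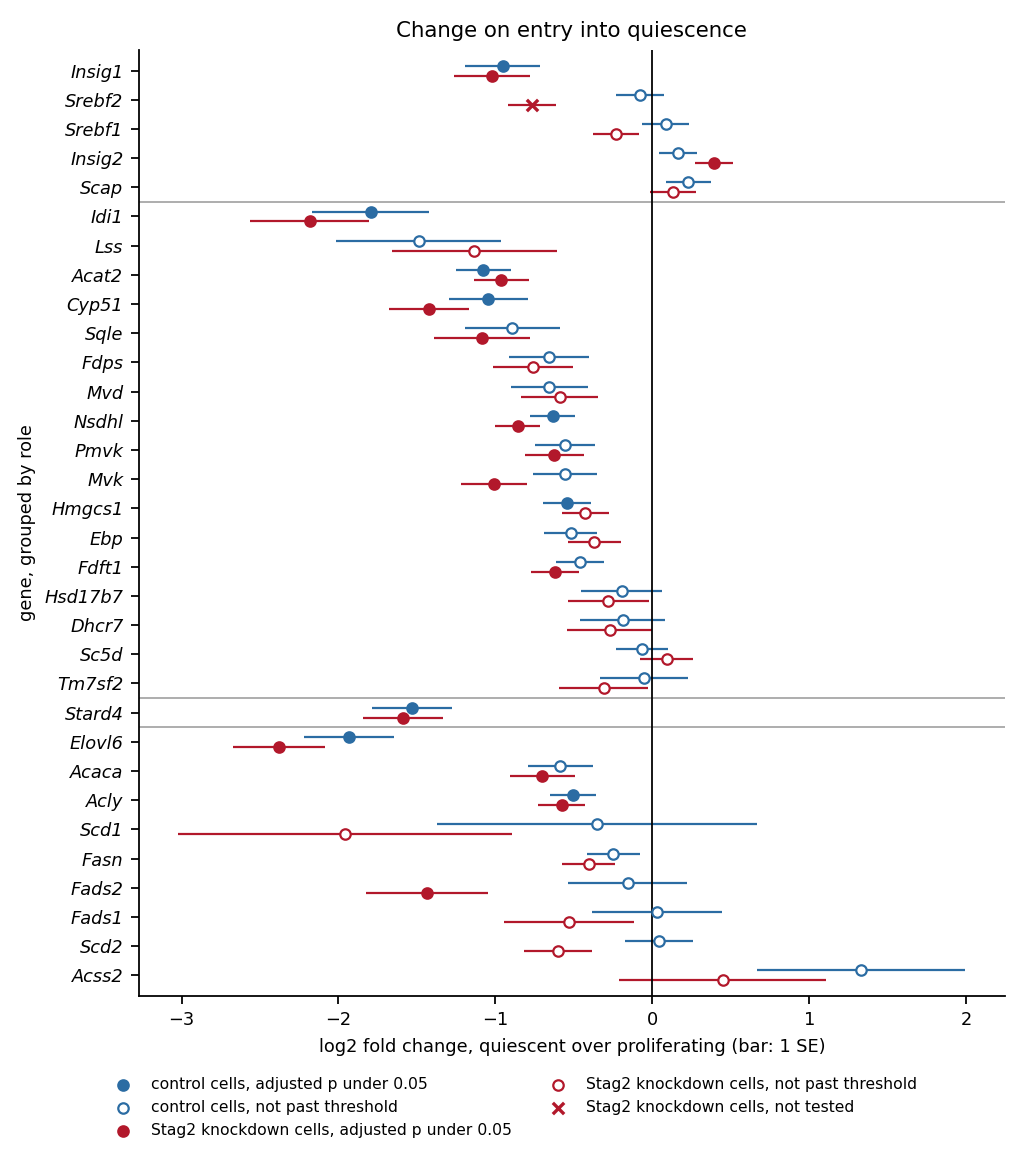
Log2 fold change of each member from proliferating to quiescent cells (horizontal axis), in control cells (blue) and in Stag2 knockdown cells (red), with bars of 1 SE and filled points for an edgeR adjusted p under 0.05. In control cells the 9 filled points all lie left of 0. Srebf2 lies at -0.08 in control cells and at -0.77 in knockdown cells, the latter drawn as a cross. Both values of Srebf2 are described and not tested.

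Other genes of lipid metabolism, 36 listed by textbook role and 33 tested, changed in both directions in control cells: 6 rose and 5 fell (8 and 7 with the block), with a median log2 fold change of 0.13. Of the 5 other genes of sterol and isoprenoid synthesis 4 fell by edgeR's test, among them Tmem97, a sterol-sensitive membrane protein (-2.05, SE 0.41, adjusted p 0.00586), Sc4mol, the sterol methyl oxidase now named Msmo1 (-1.08, SE 0.15, adjusted p 0.000692), and Aacs (-0.38, SE 0.12, adjusted p 0.0444). Of 8 genes of SREBP processing and turnover 1 rose, Erlin2 (0.40), and 0 fell. Of 9 genes of sterol esterification, trafficking and LXR signalling 2 rose: Npc1, which exports cholesterol from lysosomes (0.60, SE 0.17, adjusted p 0.0326), and Nr1h2, a sterol-sensing nuclear receptor (0.41, SE 0.12, adjusted p 0.0385). Of 11 tested genes of other lipogenesis Me1 (1.02), Dgat1 (0.59) and Elovl5 (0.49) rose, and Acsl3 (-1.20) fell.

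All 5 proliferation markers listed beside the state change fell, from -1.61 for Pcna to -5.39 for Top2a on the log2 scale. Pparg, the gene of the receptor that rosiglitazone activates, stood at 1.79 to 8.65 CPM over the 12 libraries. What part cycling or PPAR gamma had in the lower sterol genes was not tested.

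In knockdown cells entry into quiescence gave 14 lower and 1 higher of the 31 members other than Srebf2 by edgeR's test, where 18.4% of all genes were called, 10.8% lower and 7.59% higher. The median was -0.62 against 0.005 over all genes, and with the block 21 fell and 1 rose, where the block called 33.0% of all genes, 15.9% higher and 17.2% lower. All quiescent libraries lay below all proliferating ones for 17 of these members and above them for 1, against 19.1% and 18.1% of all genes. The 3 quiescent knockdown libraries are those in which low Srebf2 chose the genes, so Srebf2 is described here and not tested: 298, 232 and 287 CPM in proliferating knockdown cells and 157, 172 and 152 CPM in quiescent ones, a log2 fold change of -0.77.

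Insig1 fell in knockdown cells as well, from 32.3, 41.2 and 64.6 CPM to 18.2, 26.4 and 23.6 CPM (log2 fold change -1.02, SE 0.24, adjusted p 0.0144 by edgeR). Insig2, the second anchor of Scap, rose from 28.8, 30.9 and 26.3 CPM to 37.6, 36.9 and 38.3 CPM (0.39, SE 0.12, adjusted p 0.0452 by edgeR). Its groups did not overlap, but it passed in only 1 of the 15 fits that left out a library or an experiment, at 0.32 to 0.46. Srebf1 went from 159, 180 and 184 CPM to 190, 129 and 126 CPM, higher in experiment 5 and lower in experiments 7 and 9, and did not pass (-0.23, SE 0.15, adjusted p 0.302 by edgeR). Scap had a log2 fold change of 0.13 (SE 0.14).

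Among sterol enzymes 8 of 17 fell in knockdown cells, 13 with the block, with a median of -0.62. Idi1 went from 58.6, 49.6 and 127 CPM to 9.88, 23.3 and 18.8 CPM (log2 fold change -2.18, SE 0.38, adjusted p 0.00307 by edgeR). Cyp51 went from 96.8, 113 and 179 CPM to 39.6, 65.0 and 40.7 CPM (-1.42, SE 0.25, adjusted p 0.00352 by edgeR). The proliferating library of experiment 9 was the highest in both genes, and the groups did not overlap. Mvk, mevalonate kinase, went from 16.7, 12.4 and 18.6 CPM to 7.43, 8.89 and 7.44 CPM (-1.01, SE 0.21, adjusted p 0.00736 by edgeR). Sqle (-1.09), Acat2 (-0.96), Nsdhl (-0.86), Pmvk (-0.62) and Fdft1 (-0.62) fell too. Stard4 fell to 5.26, 11.8 and 8.20 CPM (-1.59, SE 0.26, adjusted p 0.00214 by edgeR).

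Of the fatty acid enzymes 4 of 9 fell in knockdown cells, 6 with the block. Elovl6 went from 28.7, 25.4 and 51.4 CPM to 5.67, 8.95 and 5.68 CPM (log2 fold change -2.38, SE 0.29, adjusted p 0.000659 by edgeR). Fads2, the delta-6 desaturase of polyunsaturated fatty acids, went from 32.1, 36.4 and 76.6 CPM to 13.2, 23.1 and 17.4 CPM (-1.44, SE 0.39, adjusted p 0.0256 by edgeR). The groups of neither gene overlapped. Acaca (-0.70) and Acly (-0.58) also fell, while Scd2 (-0.60, adjusted p 0.0759 by edgeR) and Scd1 (-1.96, SE 1.06, adjusted p 0.224 by edgeR) passed only with the block, at adjusted p of 0.00689 and 0.00685. With Srebf2 included the members called lower numbered 15, against 14 without it, and the call of Srebf2 is not read as a result. This count was 8 without the proliferating knockdown library of experiment 9 and 9 without the quiescent knockdown library of experiment 9. It was 8 without experiment 7 and 4 without experiment 9. Here too calls over all genes in the same fits are not given, and the shifts are not read as particular to the members.

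Knockdown in proliferating cells used 3 knockdown libraries that had no part in the choice of the genes. Here 0 of the 32 genes passed edgeR's test, where 0.0242% of all tested genes were called. The block also gave 0 members, and DESeq2 gave 0. At an unadjusted p under 0.05 there was 1 member by edgeR and 2 with the block, and 228 and 645 of all genes.

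That member was Srebf2, at 386, 384 and 430 CPM in control and 298, 232 and 287 CPM in knockdown cells. The groups did not overlap, and the log2 fold change was -0.55 (SE 0.15), with differences of -0.37, -0.72 and -0.58 in experiments 5, 7 and 9. Its edgeR adjusted p was 1.00, and 0.848 with the block. It was the only member with all knockdown libraries below all control libraries, which was so for 2.65% of all genes, and 0 members had them all above, against 2.66%. Srebf1 had a log2 fold change of 0.16 (SE 0.15), Scap -0.05 (SE 0.14), Insig1 0.10 (SE 0.24) and Insig2 0.01 (SE 0.12).

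The values of the targets differed between experiments in proliferating cells. The mean difference over the 17 sterol enzymes, on the log2 CPM scale, was -0.27, -0.30 and 0.11 in experiments 5, 7 and 9, or -0.15 ± 0.23 (SD, n = 3). Over the 9 fatty acid enzymes it was -0.18, -0.32 and 0.24, or -0.09 ± 0.29. Both role groups were lower with sh4 in 2 experiments and higher in experiment 9. The largest differences were those of Lss (-0.56, SE 0.52), Idi1 (-0.37, SE 0.36) and Sqle (-0.35, SE 0.30). Lss stood at 40.0, 40.8 and 125 CPM in knockdown cells against 50.5, 73.8 and 180 CPM in control cells. Its log2 differences within experiments 5, 7 and 9 were -0.34, -0.85 and -0.52. The log2 fold change was 0.14 without the proliferating control library of experiment 9, a fit that kept the knockdown library of that experiment. The median over the 32 genes was -0.08, and -0.27 without the proliferating knockdown library of experiment 9.

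**Figure D3:**
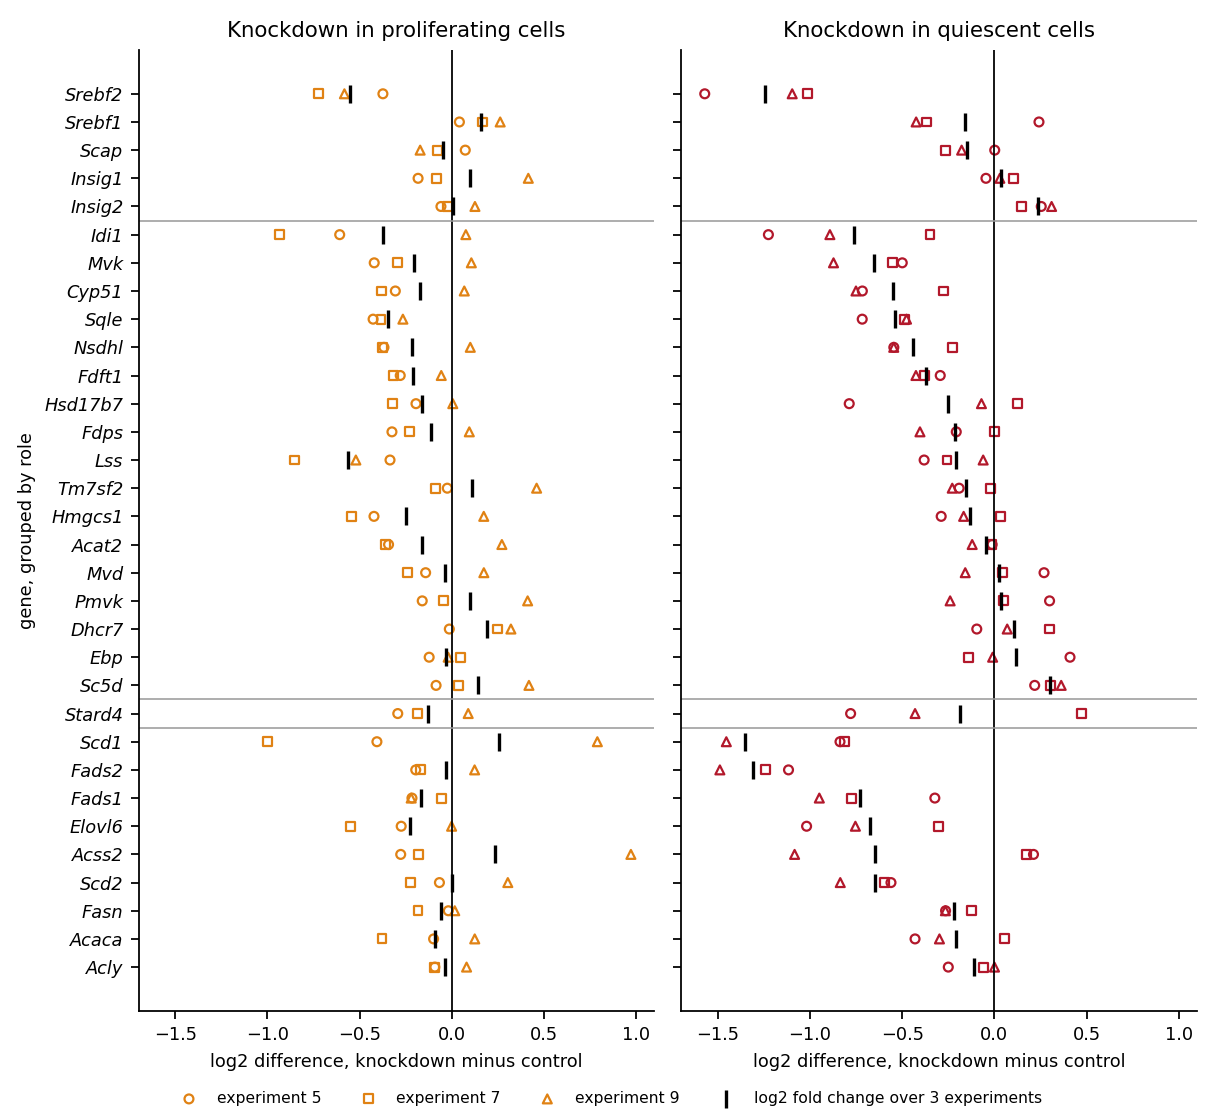
Log2 difference of each member between knockdown and control within experiments 5, 7 and 9 (open symbols) and the log2 fold change over the 3 experiments (bars), in proliferating cells (left) and quiescent cells (right). Srebf2 lies left of 0 in every experiment in both panels. The 9 fatty acid enzymes at the bottom have negative fold changes in quiescent cells, from -1.35 to -0.11.

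In quiescent cells, the comparison that chose the genes, Srebf2 stood at 465, 346 and 325 CPM in control and at 157, 172 and 152 CPM in knockdown cells, 2.37-fold lower (log2 fold change -1.24, SE 0.15). Its log2 fold change ran from -1.36 to -1.05 when a library or an experiment was left out. In this comparison edgeR called 0.435% of all genes, 0.153% higher and 0.282% lower, and the block called 3.55%, 1.59% higher and 1.96% lower. Among the members these were Srebf2 by edgeR, and Srebf2, Scd2 and Fads2 with the block, counts that the choice of the genes bears on and from which nothing is read. For 9 members all knockdown libraries lay below all control libraries, and for 1, Insig2, they lay above, against 8.85% and 10.2% of all genes. The same control libraries serve as the quiescent group of the comparison above. Proliferation markers were higher with sh4 in these cells for 4 of 5 genes by fold change: Mki67 stood at 0.552 to 7.93 CPM in control and 5.49 to 33.6 CPM in knockdown cells, and Mcm5 at 3.24 to 6.61 and 11.7 to 19.3 CPM. Pparg stood at 4.34 to 8.65 CPM in control and 1.79 to 2.40 CPM in knockdown cells, without overlap. The part of cycling cells, of the higher Csf1r and of the lower Pparg in the values below was not tested.

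The other regulators did not share the size of the difference in Srebf2. Insig1, a target of SREBP2, stood at 18.8, 24.6 and 23.1 CPM in control and 18.2, 26.4 and 23.6 CPM in knockdown cells, a log2 fold change of 0.03 (SE 0.24). The 2 groups covered almost the same range. Srebf1 had -0.16 (SE 0.15), Scap -0.15 (SE 0.14) and Insig2 0.24 (SE 0.12).

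Over all members other than Srebf2, 24 of 31 had a negative log2 fold change, with a median of -0.21 against 0.02 over all tested genes. The 17 sterol enzymes had a median of -0.21 and ranged from -0.76 to 0.30, with 12 negative. Their mean difference was -0.28, -0.11 and -0.29 in experiments 5, 7 and 9. The largest was that of Idi1, 23.3, 29.7 and 34.9 CPM in control and 9.88, 23.3 and 18.8 CPM in knockdown cells (-0.76, SE 0.37), whose groups overlapped by the library of experiment 7. Mvk stood at 10.6, 13.1 and 13.7 CPM in control and 7.43, 8.89 and 7.44 CPM in knockdown cells (-0.65, SE 0.21), with no overlap. Cyp51 (-0.55, SE 0.25), Sqle (-0.54, SE 0.30), Nsdhl (-0.44, SE 0.14) and Fdft1 (-0.37, SE 0.15) followed. Cyp51, Nsdhl and Fdft1 had no overlap either, while the groups of Sqle overlapped.

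Several classic targets of SREBP2 lay close to 0 in the same cells. Hmgcs1, with the sterol element printed above, stood at 94.0, 100.4 and 98.9 CPM in control and 76.9, 103 and 88.1 CPM in knockdown cells (-0.13, SE 0.15). Acat2 (-0.05, SE 0.18), Mvd (0.03, SE 0.24), Pmvk (0.03, SE 0.19) and Dhcr7 (0.11, SE 0.27) were as near. Sc5d, a late desaturase of the sterol ring, was the highest at 0.30 (SE 0.17).

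All 9 fatty acid enzymes had a negative log2 fold change in quiescent knockdown cells, with a median of -0.65, and their mean difference was -0.51, -0.41 and -0.79 in experiments 5, 7 and 9, or -0.57 ± 0.20 (SD, n = 3). Fads2 stood at 28.6, 54.9 and 49.0 CPM in control and 13.2, 23.1 and 17.4 CPM in knockdown cells (-1.31, SE 0.39). Scd2 stood at 1564, 1224 and 1127 CPM in control and 1061, 811 and 632 CPM in knockdown cells (-0.65, SE 0.22). In both genes every knockdown library lay below every control library. Elovl6 stood at 11.6, 11.1 and 9.66 CPM in control and 5.67, 8.95 and 5.68 CPM in knockdown cells (-0.67, SE 0.29), also without overlap.

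Fads1, the delta-5 desaturase, stood at 42.8, 106 and 70.0 CPM in control and 34.2, 61.8 and 36.2 CPM in knockdown cells (-0.73, SE 0.42). It was lower in each experiment, with overlapping groups. Scd1 stood at 2.28, 3.12 and 24.8 CPM in control and 1.22, 1.73 and 8.96 CPM in knockdown cells. Its log2 fold change of -1.35 (SE 1.05) became 0.54 without the quiescent control library of experiment 9, a fit that kept the knockdown library of that experiment. Within experiments 5, 7 and 9 its log2 differences were -0.84, -0.81 and -1.45. Acss2 (-0.65, SE 0.65) was lower in experiment 9 only, and Acly, Acaca and Fasn lay between -0.22 and -0.11.

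**Figure D4:**
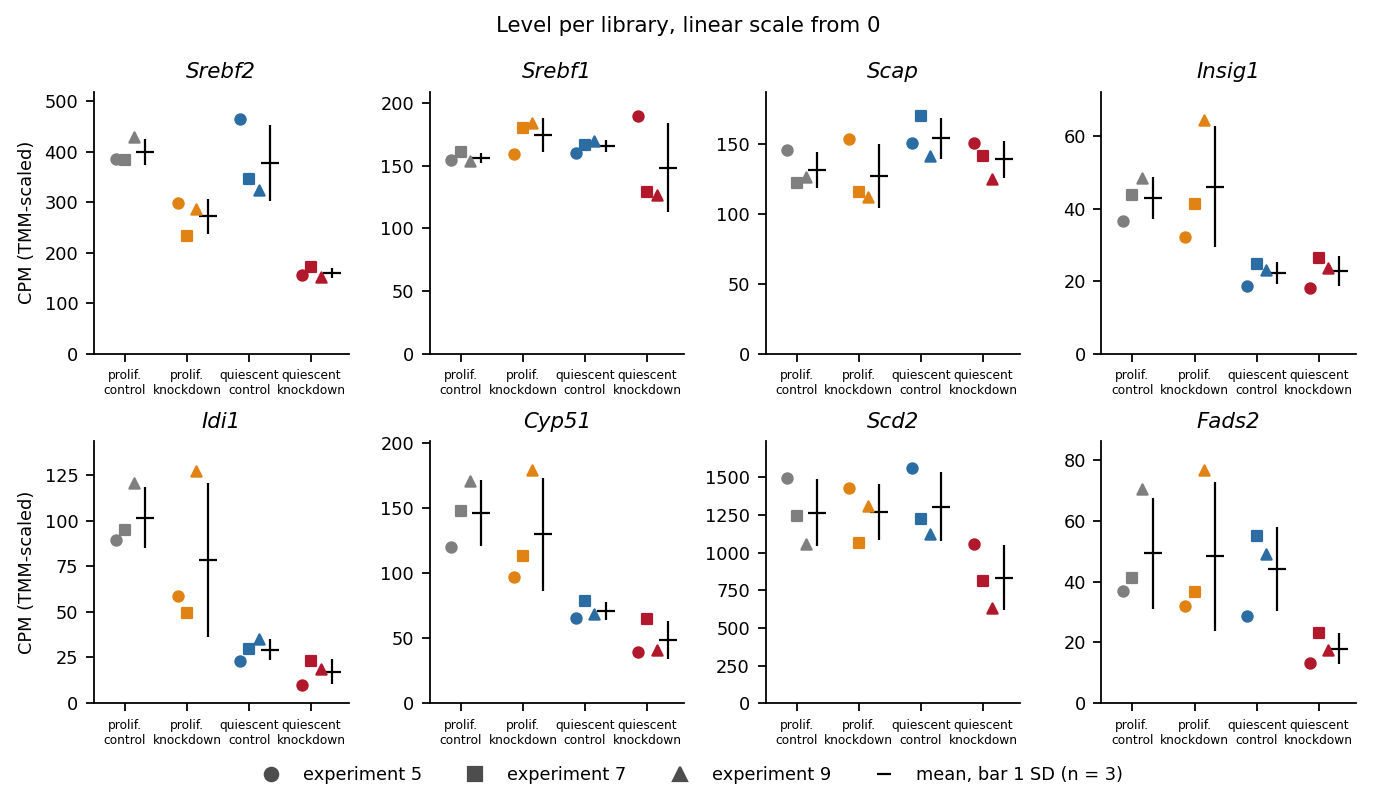
Level of 4 regulators (top) and 4 enzymes (bottom) in each library, in CPM on linear axes from 0, by group, with symbols for experiments 5, 7 and 9 and the mean with 1 SD (n = 3) to the right of each group. Srebf2 is lowest in quiescent knockdown cells, at 152 to 172 CPM, whereas Insig1 and Idi1 are already low in quiescent control cells.

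The difference between the knockdown in quiescent and in proliferating cells contains the comparison that chose the genes. EdgeR's test of it called 0 of the 12406 genes, with 219 at an unadjusted p under 0.05, and the block called 0, with 590, and DESeq2 called 0. For Srebf2 this difference was -0.69 on the log2 scale (SE 0.22), for Fads2 -1.28 (SE 0.54), for Scd2 -0.65 (SE 0.30), and over the 32 genes the median was -0.14. In the other lipid genes knockdown in quiescent cells gave 0 calls of 33 by edgeR and 1 with the block, Elovl5, an elongase of polyunsaturated fatty acids, at 163, 139 and 183 CPM in control and 92.5, 99.6 and 91.1 CPM in knockdown cells (-0.78, SE 0.15, adjusted p 0.0571 by edgeR and 0.0231 with the block). The knockdown in proliferating cells gave 0 calls among them with either fit.

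The hairpin's sequence is not in the labels, and 3′ UTR heptamers shared by genes lower with sh4 were therefore listed from the values themselves. Of 14602 heptamers found in at least 150 of 10876 genes, TGACGCA had the lowest median log2 fold change in quiescent knockdown cells (-0.26, 190 genes) and in proliferating ones (-0.11), and it was in 0 of the 32 members. The heptamer at rank 2 in both states was in 0 members as well. AGACGCA was the third in quiescent cells (-0.19, 270 genes, 2.48% of genes). It had -0.07 in proliferating cells, where another heptamer held rank 3. It is printed here because Srebf2 carries it. The quiescent ranking used the comparison that chose the genes, and 3′ UTR length was not matched, so nothing is read from the number of members with it. AGACGCA was in 5 members: Srebf2, Lss, Stard4, Acaca and Elovl6. In Srebf2 it lies at base 466 of a 3′ UTR of 1465 bases in GENCODE M21, within chr15:82204369-82204397 of GRCm38 on the plus strand, with the heptamer in capitals.
Srebf2 site: ctggacttgatAGACGCAcccctttttat

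Whether this sequence has a part in the lower Srebf2 was not tested. With 1 hairpin, the loss of Stag2 and an effect of sh4 on other messages cannot be told apart in any of the knockdown values above.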

How the data were processed

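Per the labels' protocols, polyadenylated RNA was made into strand-specific libraries with ERCC spike-ins. The authors deposited raw counts per gene symbol, and 0 rows were ERCC sequences, so levels are relative to the other genes of a library and not per cell. The submitters' processing notes name Bowtie, TopHat, HTSeq, DESeq2 and the build mm10, without roles. Parameters and the strand setting of counting are not given in the sources used here. Overlapping and antisense genes, and to some degree the related Scd genes, may therefore share reads. Counts were tested with edgeR 4.0.16 in R 4.3.3: TMM scaling, filterByExpr with a minimum count of 10, 4 group means over 12 libraries, quasi-likelihood tests of 5 contrasts, and Benjamini-Hochberg adjustment over all 12406 genes at 0.05. The SE is the absolute log2 fold change over the square root of F. Differences within an experiment are on log2 CPM with a prior count of 2. The test recovered known changes in simulated counts for quiescence in control cells. These counts had the same spread for every gene and no differences between experiments. Changes as small as most of those above were not simulated, so the recovery does not bear on genes that did not pass. Totals ran from 14524429 to 21987539 counts. Pairs of libraries of the same group differed beyond counting noise, with a chi-square per degree of freedom of 36.6 to 99.7. P-values of the main fit measure the spread between experiments. Those with the block measure the spread left after differences shared by the libraries of an experiment are taken out.

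The experiment numbers pair the libraries, because in the labels each number has its own batch. Deviations from the group means correlated at 0.526 on average over 18 same-numbered pairs (0.225 to 0.789) and at -0.259 over 36 others. Deviations within a group cancel, so the second value follows largely from the first and is no separate evidence. Experiment as an additive block was an alternative, as were DESeq2 1.42.0, RLE factors, other filters on low counts, fits on fewer libraries, and leaving out libraries and experiments.

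The members and lists were chosen with earlier results of these data known. Values in every library were given for the regulators and for the members with the largest changes in each role. Promoter sequences are from RefSeq on GRCm38.p6, and exon lengths and 3′ UTRs from GENCODE M21. Some genes of the listed pathways are not reported here.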

Additional observations from a re-analysis of the deposited data

How the results depend on the processing

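In this paragraph and the next, counts for quiescence in knockdown cells include Srebf2, whose call is not read as a result. Nothing is read from the members' counts for the knockdown in quiescent cells, the comparison that chose them. With experiment as a replicate block, the members lower in quiescent control cells numbered 17 against 9, those lower in quiescent knockdown cells 22 against 15, and those lower with the knockdown in quiescent cells 3 against 1. In knockdown cells the members it added were Hmgcs1, Mvd, Fdps, Lss, Ebp, Scd1 and Scd2, and those added in the other comparisons are given with the genes. Over all genes the block gave 2083 higher and 2291 lower against 1033 and 1448 for quiescence in control cells, 1967 and 2129 against 941 and 1338 in knockdown cells, and 197 and 243 against 19 and 35 for the knockdown in quiescent cells. DESeq2 gave 15, 17 and 2 lower members in these comparisons. Over all genes it gave 1423 higher and 1773 lower for quiescence in control cells, and 1342 and 1632 in knockdown cells. For the knockdown in quiescent cells it gave 145 higher and 233 lower genes. For the knockdown in proliferating cells DESeq2 gave 1 higher and 11 lower genes against 0 and 3. The block without experiment 7, and that without experiment 9, each gave 0 members lower with the knockdown in quiescent cells, and the block without experiment 7 moved their median log2 fold change from -0.21 to -0.33.

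The 1 member higher in quiescent knockdown cells, Insig2, became 0 with no filter on low counts, with the libraries of the comparison alone, and with the block without each experiment in turn. Leaving out a library or an experiment gave 2 to 14 lower members in quiescent control cells, 4 to 15 lower and 0 to 1 higher in quiescent knockdown cells, and 0 to 1 lower with the knockdown in quiescent cells. Calls over all genes in those fits are not printed beside these ranges. Over the same fits the members' median ran from -0.27 to -0.0066 for the knockdown in proliferating cells and from -0.34 to -0.16 in quiescent cells.

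The directions that turned were those of genes that did not pass, and of Srebf2, which is described only. For quiescence in control cells Srebf2 (-0.08) ranged from -0.28 to 0.081 over these leave-outs, positive without the quiescent control library of experiment 9 (0.02) or without experiment 9, and was 0.069 with the block and no experiment 9. Acss2 (1.33) ranged from -0.17 to 1.80, negative in the same fits, with -0.17 in the block without experiment 9 and 0.90 in the block over all experiments. Lss ranged from -1.34 to 0.14 for the knockdown in proliferating cells, the latter without the proliferating control library of experiment 9. Scd1 ranged from -2.77 to 0.54 for the knockdown in quiescent cells, the latter without the quiescent control library of experiment 9. The fits at 0.14 and 0.54 kept the knockdown library of experiment 9 without its control. Within experiments 5, 7 and 9 both genes were lower with sh4 each time. Lss differed by -0.34, -0.85 and -0.52 in proliferating cells, and Scd1 by -0.84, -0.81 and -1.45 in quiescent cells. What caused the turned directions was not tested. Where a fit left 1 experiment out, 2 libraries a group remained. Acss2, at about 2 CPM in most libraries, has the least depth.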

Other observations

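The quiescent control library of experiment 9, in which Acss2 stood high, also had high levels of some targets of the sterol-sensing LXR receptors, which were looked at after those values were seen. Abca1, the exporter of cholesterol, stood at 57.2 CPM there against 8.21 and 5.08 CPM in experiments 5 and 7. In the quiescent knockdown library of experiment 9 it stood at 12.5 CPM against 5.53 and 3.70 CPM. Mylip, a ligase that marks lipoprotein receptors for breakdown, stood at 18.2 and 17.0 CPM in the quiescent control and knockdown libraries of experiment 9, against 1.38 to 2.58 CPM in the other 4 quiescent libraries. Abcg1, another exporter, stood at 9.18 CPM in that library against 11.2 and 12.6 CPM in experiments 5 and 7. In proliferating control cells it stood at 2.22 CPM in experiment 9 against 8.70 and 9.64 CPM, so that its log2 difference on entry into quiescence was 2.00 in experiment 9 and 0.36 and 0.38 in experiments 5 and 7. Nr1h2, the more abundant LXR, stood at 121 CPM there against 103 and 102 CPM, and Nr1h3 was under 1 CPM in every library.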
